A study of Mus musculus with 24 samples.

Results

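CpG methylation of the micro-dissected dentate gyrus was compared between 7 mice that had aged in environmental enrichment (Aged ENR) and 5 young mice from standard cages (Young STD), 12 of the 19 mice with values in the table and of 24 labelled libraries. All were female C57BL/6JRj mice, a wild-type inbred strain, with no transgene or drug. Aged ENR mice were 14 months old and had lived for more than a year in large cages with changing objects, whereas Young STD mice were 1.5 months old and had stayed in standard cages. Mice were chosen by these labels alone, and no methylation value entered the choice. Aged STD mice (n = 7), of the same age as the Aged ENR mice but kept in standard cages, are given side by side. No test set Aged STD mice against another group. Their levels and ranges are described beside those of the other groups, and their levels served to class CpGs and windows. An alternative fit held them to share the estimate of the spread. The comparison asks which regions of the genome still differed from young mice after ageing in enrichment. Because age and housing both differed between the groups, their shares in a difference cannot be told apart. The libraries carry numbers that start with 27 or 37, and both groups had mice in each of these library number series (3 Young STD and 4 Aged ENR mice in series 27, 2 and 3 in series 37).

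Methyl groups on the cytosine of CpG dinucleotides are copied to the new strand at replication by Dnmt1, set by Dnmt3a and Dnmt3b and oxidised by the Tet enzymes. Promoters that are dense in CpGs are mostly free of methylation, most CpGs elsewhere are methylated, and imprinted regions carry the mark on the allele of a single parent. The dentate gyrus is the part of the hippocampus where granule neurons are added throughout adult life, and its tissue also holds interneurons, astrocytes, oligodendrocytes, microglia and vessel cells. A methylation level of such tissue is a mean over all these cells, so a different share of a cell type and a different level within a cell type cannot be told apart. Reduced representation bisulfite sequencing (RRBS) reads the CpGs near cutting sites of a restriction enzyme, and the level of a cytosine is the percent of its reads that were methylated.

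The stretches below are shown because they carry large differences between groups that did not overlap and fit in 300 bases. Each is the reference sequence of GRCm38 on the plus strand from the first to the last measured CpG of a 1 kb window, in lower case with the measured CpGs in capitals. The first 6 held less methylation in Aged ENR mice and the last 2 held more.
Igfals intron, chr17:24868100-24868326: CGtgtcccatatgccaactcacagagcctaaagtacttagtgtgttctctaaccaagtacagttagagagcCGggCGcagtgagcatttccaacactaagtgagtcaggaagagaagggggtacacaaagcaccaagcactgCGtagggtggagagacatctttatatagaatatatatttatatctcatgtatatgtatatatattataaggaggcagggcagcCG
intergenic near Ywhaz, chr15:36762116-36762279: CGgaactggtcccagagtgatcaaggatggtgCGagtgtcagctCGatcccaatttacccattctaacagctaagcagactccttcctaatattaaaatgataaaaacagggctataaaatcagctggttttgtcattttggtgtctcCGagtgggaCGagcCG
intergenic near Mfap3l, chr8:60764111-60764339: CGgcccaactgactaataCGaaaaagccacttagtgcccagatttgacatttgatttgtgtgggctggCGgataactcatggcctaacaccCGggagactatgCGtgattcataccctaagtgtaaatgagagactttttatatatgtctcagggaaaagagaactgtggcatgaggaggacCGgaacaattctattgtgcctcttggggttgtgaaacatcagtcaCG
Dapp1 intron, chr3:137974583-137974880: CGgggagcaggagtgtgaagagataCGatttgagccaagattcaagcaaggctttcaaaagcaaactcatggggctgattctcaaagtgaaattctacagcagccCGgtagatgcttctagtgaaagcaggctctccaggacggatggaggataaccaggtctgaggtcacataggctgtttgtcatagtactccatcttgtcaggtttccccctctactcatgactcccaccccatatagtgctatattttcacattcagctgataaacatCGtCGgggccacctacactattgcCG
Crybg2 and Cd52 intron, chr4:134088009-134088159: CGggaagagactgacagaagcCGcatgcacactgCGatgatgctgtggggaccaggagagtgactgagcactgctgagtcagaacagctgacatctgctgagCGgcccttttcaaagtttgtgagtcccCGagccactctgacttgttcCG
Sobp intron, chr10:43004447-43004617: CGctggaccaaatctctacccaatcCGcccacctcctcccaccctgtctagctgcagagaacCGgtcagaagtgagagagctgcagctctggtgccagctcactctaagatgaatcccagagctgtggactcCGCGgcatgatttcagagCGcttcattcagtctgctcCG
2210408I21Rik intron, chr13:77584905-77584975: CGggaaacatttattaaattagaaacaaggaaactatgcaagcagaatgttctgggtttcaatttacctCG
intergenic near Rpp21, chr17:36231223-36231483: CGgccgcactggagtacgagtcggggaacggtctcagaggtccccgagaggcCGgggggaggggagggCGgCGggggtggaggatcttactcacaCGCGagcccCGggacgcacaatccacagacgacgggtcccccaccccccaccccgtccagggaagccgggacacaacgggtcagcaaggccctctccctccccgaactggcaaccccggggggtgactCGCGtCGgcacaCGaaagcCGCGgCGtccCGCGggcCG

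The lower stretches held 5 to 7 measured CpG dinucleotides in 151 to 298 bases. In the Igfals stretch all 6 measured cytosines had a lower mean in Aged ENR mice, by differences between -61.0 and -37.0 percentage points. The stretch near Ywhaz had an uneven profile. Its 3 plus-strand cytosines at bases 1, 33 and 45 had means of 81.5%, 74.8% and 74.7% in Young STD mice and 8.33%, 2.72% and 2.68% in Aged ENR mice. Its 3 minus-strand cytosines at bases 149, 158 and 163 differed by -8.30, -12.1 and -10.5 points, with values in 4 Young STD and 6 Aged ENR mice. The stretch near Rpp21 was the densest, with 17 measured dinucleotides of 30 in 261 bases and a GC content of 72.8%. There 15 of 17 cytosines had a higher mean in Aged ENR mice, by up to 15.8 points, and the cytosines at bases 98 and 226 were at 0 in every measured mouse of both groups.

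The table gave levels for 762137 cytosines in CpGs of the autosomes and chromosome X, with the 2 strands of a CpG as separate entries. Young STD mice had values at 552456 to 725427 of them and Aged ENR mice at 502675 to 675063. The number of reads behind a level was not in the table, so the depth is unknown and no interval from counting could be given. A trace of it is the share of CpGs with an intermediate level in the other mice (50% to 80%) that were at exactly 0 or 100. That share was 17.7% to 45.1% in Young STD mice and 26.1% to 62.5% in Aged ENR mice, with Aged ENR mice 3 and 4 the highest at 61.7% and 62.5%. Which CpGs were measured also differed between mice. The composition index, defined for a mouse as the mean that its measured CpGs have in the other Young STD mice, was 31.5% ± 0.632 (SD, n = 5) in Young STD mice and 29.5% ± 3.88 (SD, n = 7) in Aged ENR mice, from 23.4% in Aged ENR mouse 4 to 36.2% in Aged ENR mouse 6. Promoters of granule neuron markers and of interneuron markers were both nearly free of methylation in Young STD mice (medians 2.19% and 3.0%), so these levels could not check the labelled tissue.

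Over the 115038 CpGs measured in all 12 mice, introns held less methylation in Aged ENR mice, CpG-dense promoters had nearly equal means, and no region class passed correction. Intronic CpGs had levels of 47.3%, 47.5%, 47.3%, 50.6% and 50.8% in the 5 Young STD mice, and in Aged ENR mice the lowest was 42.0%, the median 45.9% and the highest 50%. Of the 7 Aged ENR mice 6 lay below every Young STD mouse, and mouse 6 lay inside their range. The mean difference for introns was -2.87 points (48.7% ± 1.84 against 45.8% ± 2.35, SD, n = 5 and 7; two-sided exact permutation test over 792 labellings, p = 0.0543, Benjamini-Hochberg adjusted over 15 classes 0.219). CpG-dense promoters had means of 2.62% ± 0.172 and 2.60% ± 0.198 (SD, n = 5 and 7), a difference of -0.018 points that turned positive under several alternatives. CpG-sparse promoters differed by -0.879 points, exons by -1.30, intergenic CpGs within 10 kb of a gene by -1.43 and those farther away by -1.60. Over all CpGs measured in a mouse, which differ between mice, the differences were larger for introns (-5.48 points, exact permutation p = 0.0556, adjusted 0.328), exons (-3.63), CpG-sparse promoters (-2.27), intergenic CpGs (-3.80 near and -3.04 far) and all CpGs (-3.06). Repeat-masked CpGs, which had a mean of 69.1% in Young STD mice, differed by -0.733 points (-0.393 without Young STD mouse 5 and -0.420 without Aged ENR mouse 4) and the remaining CpGs by -1.32.

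**Figure D1:**
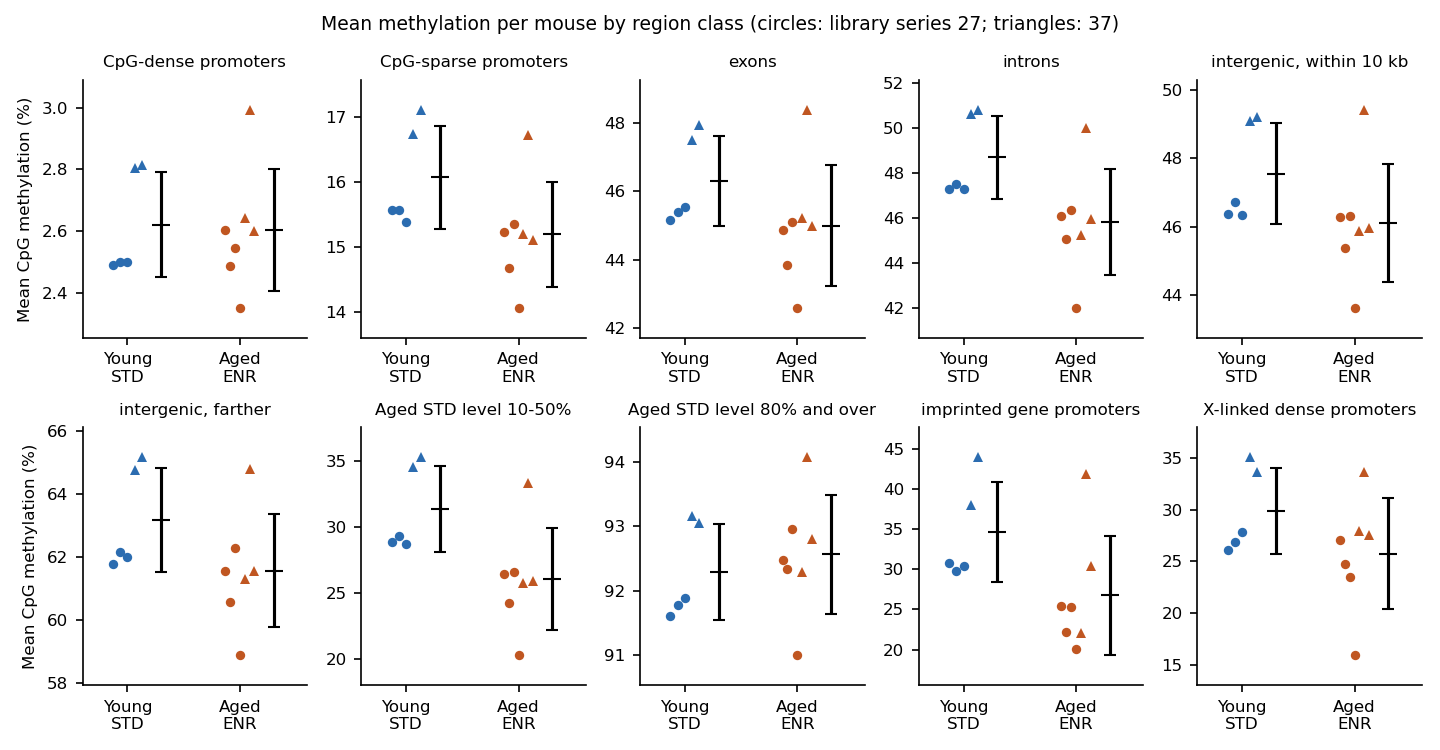
Mean CpG methylation (%, y axis, a separate scale in each panel) of every Young STD (blue) and Aged ENR (orange) mouse for 10 region classes, over CpGs measured in all 12 mice; bars give mean ± SD and the marker gives the library number series. In the intron panel 6 of 7 Aged ENR mice sit below all Young STD mice, while in the panel of CpG-dense promoters the groups overlap.

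When the same CpGs were grouped by their level in the Aged STD mice, which were in neither group, the difference in points was largest for CpGs at 10% to 50%. Because Aged STD mice share the age of Aged ENR mice, this grouping is not independent of the difference, and its values are given as a description without a p. These 18251 CpGs had levels of 28.9%, 29.3%, 28.7%, 34.5% and 35.3% in the Young STD mice and 20.3% to 33.3% in the Aged ENR mice, with a median of 25.9%. Their means were 31.3% ± 3.26 and 26.1% ± 3.85 (SD, n = 5 and 7), a difference of -5.25 points. CpGs under 10% differed by -0.538 points, those at 50% to 80% by -2.19 (-1.22 without Aged ENR mouse 4) and those at 80% and over by 0.267 points (when each mouse was left out, from 0.015 without Aged ENR mouse 6 to 0.527 without Aged ENR mouse 4, and 0.712 with the composition index in the model). Promoters of imprinted genes, with 110 CpGs in all 12 mice, had levels of 30.8%, 29.8%, 30.5%, 38.1% and 44.0% in Young STD mice, and 20% to 41.8% with a median of 25.3% in Aged ENR mice. Their difference of -7.87 points (exact permutation p = 0.0758, adjusted 0.219) rested on the fewest CpGs of the classes, and it was -2.66 points over all CpGs of the class measured in a mouse. X-linked CpG-dense promoters, of which each female carries a methylated copy on the inactive chromosome, had means of 29.9% ± 4.14 and 25.7% ± 5.38 (SD, n = 5 and 7), a difference of -4.14 points that was -2.51 without Aged ENR mouse 4.

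Aged ENR mouse 6 decided which classes passed. Without it, 8 of the 11 classes that were not set by Aged STD level passed at an adjusted exact permutation p under 0.05, among them introns (-3.56 points, adjusted p = 0.00464) and promoters of imprinted genes (-10.4 points, 0.0108). It was the highest Aged ENR mouse in each of these 8 classes, so the passes followed from which mouse was left out. In introns the other 6 Aged ENR mice lay below every Young STD mouse, which gives the smallest exact p possible. Aged ENR mouse 6 had the highest composition index and Aged ENR mouse 4 the lowest. These indices moved with the levels at shared CpGs, and their part in the differences was not tested beyond a model that held the index. In that model the intron difference was -1.70 points (exact permutation p = 0.0795, adjusted 0.331) and the difference of CpGs at 10% to 50% was -3.32 points. Other classes were smaller in that model by over 1.5 times, with -0.623 points for all CpGs, -0.476 for CpG-sparse promoters, -0.423 for exons, -0.568 and -0.730 for intergenic CpGs near and far, -0.471 for CpGs at 50% to 80%, -1.39 for X-linked CpG-dense promoters, -4.35 for promoters of imprinted genes, -0.168 for repeat-masked CpGs and -0.687 for CpGs not repeat-masked. Within the library number series the intron difference was -2.46 points in series 27 and -3.63 points in series 37, and that of CpGs at 10% to 50% was -4.56 and -6.56 points.

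**Figure D2:**
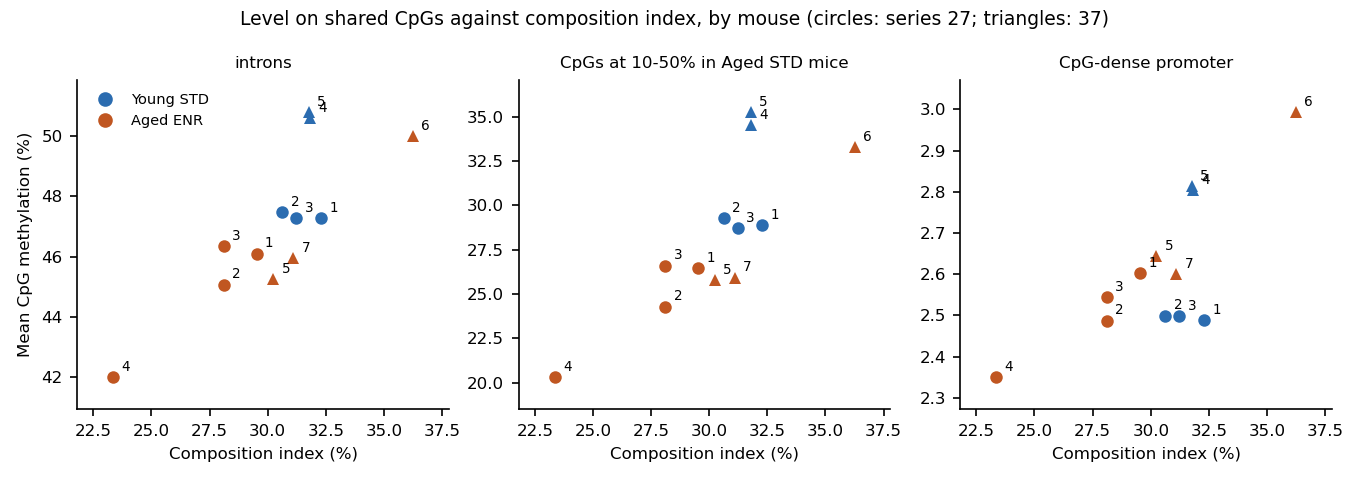
Mean methylation over shared CpGs (%, y axis) against the composition index (%, x axis) for each Young STD (blue) and Aged ENR (orange) mouse, labelled by mouse number, in introns, in CpGs at 10% to 50% in Aged STD mice and in CpG-dense promoters. Aged ENR mouse 4 (index 23.4%) lies lowest in all 3 panels, and mouse 6 (index 36.2%) lies above the other Aged ENR mice.

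Averaged in fixed 1 kb windows, the lower tail was longer than the upper tail, and no window passed correction. Of 49283 windows tested with limma (Benjamini-Hochberg), 0 (0%) had an adjusted p under 0.05, and the smallest adjusted p was 0.206. Leaving out Young STD mouse 3, 4 or 5 gave 1, 5 and 1 called windows, and leaving out any other mouse gave 0. At an unadjusted p under 0.05, 1950 windows were lower in Aged ENR mice (3.96% of those tested) and 964 were higher (1.96%). With the composition index in the model the split was even, at 1383 lower and 1388 higher, and with library series and index together it was 1979 lower and 1436 higher. Differences beyond 25 points went down in 453 windows and up in 50. The median difference over all windows was -0.110 points. Windows that lay mostly in introns had a median of -1.13 points, with 58.9% of 11088 lower and 6.60% of them at an unadjusted p under 0.05 in that direction against 1.99% in the other. Mostly promoter windows had a median of 0.064 points. By level in Aged STD mice, a grouping that is not independent of the difference, windows at 10% to 50% had a median of -3.79 points, with 754 lower and 68 higher at an unadjusted p under 0.05, and windows at 80% and over had a median of 0.464 points, with 126 lower and 484 higher.

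**Figure D3:**
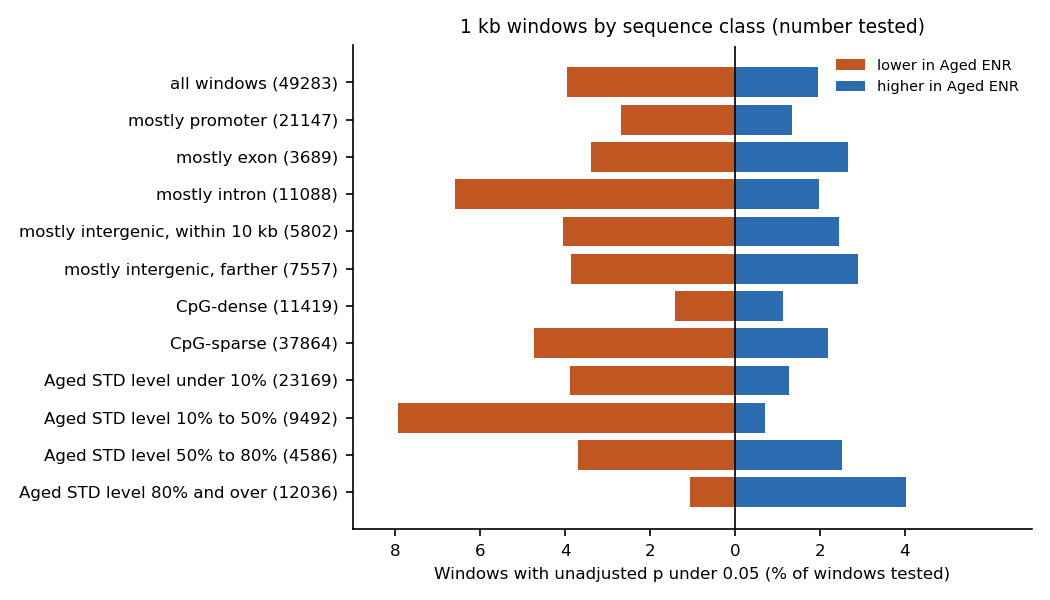
Share of 1 kb windows (%, x axis) with an unadjusted limma p under 0.05, lower in Aged ENR mice to the left (orange) and higher to the right (blue), for all windows and by sequence class or level in Aged STD mice (a grouping that shares the age of Aged ENR mice), with the number tested in parentheses. The left bar is longest for windows at 10% to 50% (754 of 9492 windows), and the right bar is longest for windows at 80% and over (484 of 12036).

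Among the 25499 windows measured in all 12 mice, 73 (0.286%) had every Aged ENR mouse below every Young STD mouse and 25 (0.098%) had every Aged ENR mouse above. In a given direction 1 of 792 labellings of 5 and 7 mice separates the groups fully. The lower share was above that and the higher share below it, which was not tested. Of the 73 lower windows, 23 were among the 4323 windows mostly in introns, 8 among 1605 in exons, 18 among 14033 in promoters and 24 between genes, and 4 were among 8593 CpG-dense windows. Their median level was 28.8% in Young STD mice, 13.1% in Aged ENR mice and 16.1% in Aged STD mice. The 25 higher windows included 12 of the same 14033 promoter windows and 10 of the 8593 CpG-dense windows, with a median difference of 3.99 points. Their median level was 6.53% in Young STD mice and 19.7% in Aged ENR mice.

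The largest of the 73 lower windows without overlap lay in an intron of Igfals on chromosome 17 (24868001 to 24869000), the gene of the acid-labile subunit that holds insulin-like growth factors in the circulation. Its level was 45.8%, 70.6%, 76.6%, 86.1% and 72.0% in the Young STD mice and 0% to 34.9%, with a median of 18.0%, in the Aged ENR mice. The difference was -51.0 ± 9.12 points (SE; limma adjusted p = 0.352), and -49.2 and -54.5 points in library series 27 and 37. The window was named for groups that did not overlap, so the same direction in both series follows from that choice. Aged STD mice ranged from 0% to 49.9%. The gene body of Igfals differed by -31.8 points (limma adjusted p = 0.190). Over CpGs measured in all 12 mice it differed by -56.4 points (limma adjusted p = 0.0334) and was among 6 called gene bodies, of which Rbks, Gm43809 and Mrpl33 had identical values. The Igfals value is the mean of the plus-strand window cytosines at bases 72, 76 and 143 of the stretch (-61.0, -56.3 and -51.8 points). This call is therefore not separate from the window. The window near Ywhaz, 30202 bases from a start of this 14-3-3 protein gene on chromosome 15, had 42.3%, 59.5%, 36.6%, 69.6% and 58.7% in Young STD mice and 0% to 35.6%, with a median of 6.27%, in Aged ENR mice. The highest Aged ENR mouse, mouse 6, lay just under the lowest Young STD mouse there, and the difference was -43.5 ± 8.32 points (SE; limma adjusted p = 0.372). In the window near Mfap3l on chromosome 8, 108662 bases from the nearest coding start, the 5 Young STD mice had 95.1%, 90.2%, 93.7%, 83.7% and 90.4%. Aged ENR mice ranged from 41.7% to 72.2% around a median of 52.2%. Young mice were close together in this window and its 8 cytosines were all lower, a difference of -37.3 ± 5.53 points (SE) with the smallest limma adjusted p of all windows, 0.206. It was called (-40.5 points, limma adjusted p = 0.0102) among 26867 windows where at least 5 CpGs per mouse were asked for. Aged ENR mouse 6, the highest at 72.2%, had no value there. Leaving out that mouse alone gave the same -40.5 points and 0 called windows.

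The exonic window of Tmem201, a protein of the inner nuclear membrane, had 51.0%, 80.8%, 63.4%, 100% and 62.0% in Young STD mice and 20% to 48.2% in Aged ENR mice, with all 9 cytosines lower. An intronic window shared by Crybg2 and Cd52, the latter a surface glycoprotein of lymphocytes, went from 57.6%, 63.2%, 61.6%, 74.3% and 81.3% to a range of 13.7% to 56.0%. Aged STD mice had a median of 75.3% in this window and ranged from 0% to 100% (n = 6), which spans both other groups. A window in an intron of Dapp1, an adaptor of phosphoinositide signalling, had 84.5%, 62.4%, 70.6%, 82.1% and 100% in Young STD mice and 31.7% to 53.8% in Aged ENR mice. Aged STD mice had 57.5% to 73.2% (n = 5). Sobp had 38.1% to 69.6% against 0% to 32.1% in an intronic window. The exonic window of Mapk8ip1, a scaffold of the JNK pathway, had 39.5% to 65.5% against 5.05% to 30.5%. These 5 windows differed by -37.6, -35.6, -34.1, -33.0 and -31.3 points in this order, each with a limma adjusted p between 0.396 and 0.567.

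The 8 higher windows with the largest differences had smaller differences than the lower windows, and 6 of them were already highly methylated in Young STD mice. The window in an intron of 2210408I21Rik on chromosome 13 had 76.4%, 66.6%, 72.1%, 69.8% and 72.8% in Young STD mice and 80.3% to 100%, with a median of 86.9%, in Aged ENR mice. It differed by 17.5 ± 4.14 points (SE; limma adjusted p = 0.528) and rested on 3 cytosines. The window near Kcnh3, 1682 bases from a start of this voltage-gated potassium channel gene, had low levels of 3.65%, 8.20%, 4.55%, 4.42% and 11.8% in Young STD mice and 13.2% to 33.3%, with a median of 23.7%, in Aged ENR mice. Its difference was 17.3 ± 4.06 points (SE; limma adjusted p = 0.525), and Aged STD mice lay between, with a median of 14.1% and a range from 2.91% to 24.3%. The CpG-rich window near Rpp21, 24901 bases from a start of this ribonuclease P subunit gene on chromosome 17, had 9.47%, 11%, 11%, 4.0% and 12.3% in Young STD mice. In Aged ENR mice it had 15.3% to 24.8% with a median of 18.4%, and in Aged STD mice 11% to 23.5% with a median of 20%. The remaining 5 windows had Young STD means of 76.8% to 89.1% and Aged ENR means of 90.0% to 97.7%. They lay in Eif2b2, a subunit of the exchange factor eIF2B, in Sdk1, a synaptic adhesion molecule, and near Atad2b, Dnah7b and Gm11172.

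**Figure D4:**
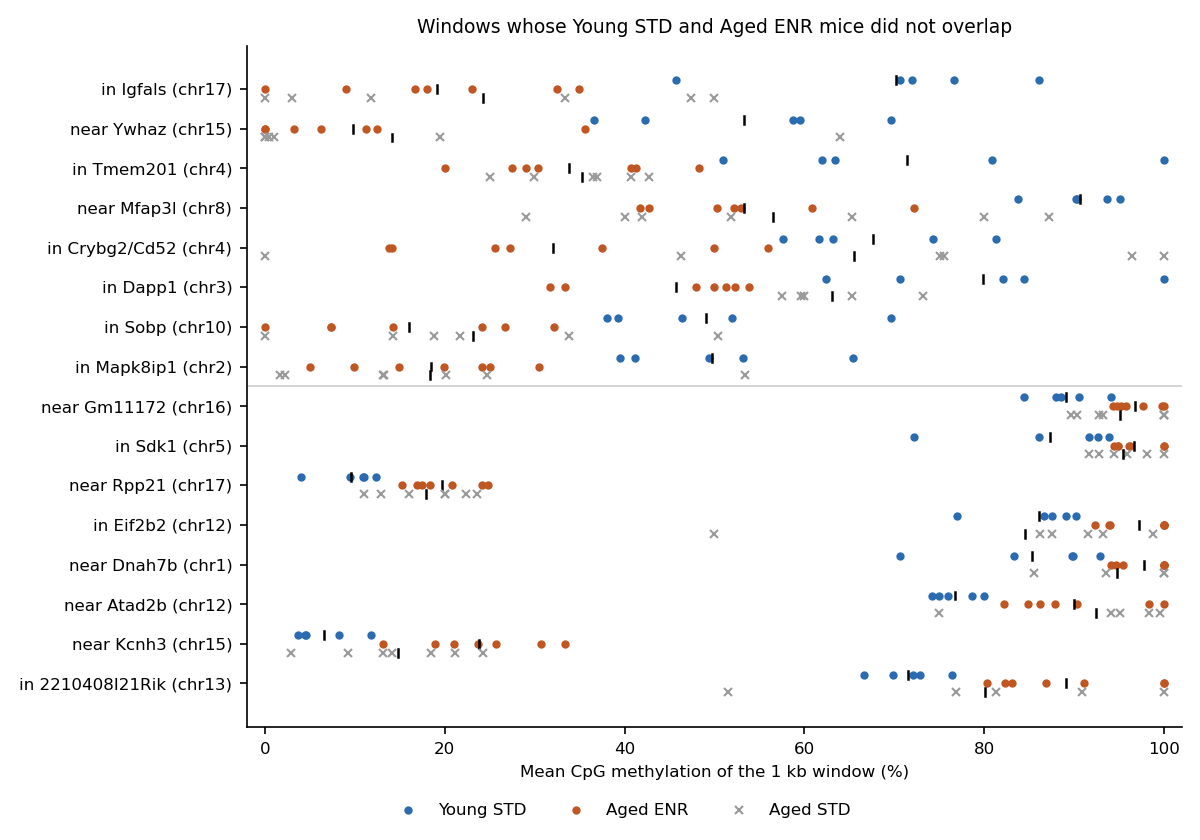
Mean methylation (%, x axis) of each Young STD (blue), Aged ENR (orange) and Aged STD (grey crosses) mouse in 16 windows whose Young STD and Aged ENR mice did not overlap, with group means as black ticks; 8 lower windows stand above the line and 8 higher windows below. The Igfals window has the widest separation of means (70.2% and 19.2%), and Aged STD mice spread over both groups in the Crybg2/Cd52 window.

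Most gene bodies had a lower mean level in Aged ENR mice. Of 9896 gene bodies tested, 0 (0%) passed at a limma adjusted p under 0.05 (smallest 0.190), while 739 (7.47%) were lower and 113 (1.14%) higher at an unadjusted p under 0.05. The median difference was -2.77 points and 69.4% of gene bodies were lower. Over the CpGs measured in all 12 mice the median was -1.42 points, with 64.1% of 3909 gene bodies lower, and a shift of all gene bodies was not tested. With the composition index in the model the median was -1.31 points and the split 451 lower to 154 higher. Without Aged ENR mouse 6 it was 1202 lower to 99 higher. Of 7017 gene bodies measured in all 12 mice, 56 (0.798%) did not overlap with Aged ENR mice lower, and 3 (0.0428%) did not overlap with Aged ENR mice higher. The lower share was above 1 in 792 labellings and the higher share below it, which was not tested.

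Wee1, the kinase that restrains entry into mitosis, had the largest difference of the 3 higher gene bodies without overlap. Its 11 cytosines outside promoters had means of 22.6%, 15%, 17.0%, 16.0% and 6.06% in the Young STD mice and 23.0% to 50%, with a median of 34.1%, in the Aged ENR mice. The difference was 20.5 ± 4.94 points (SE; limma adjusted p = 0.228), and 19.6 and 22.2 points in library series 27 and 37. The same direction in both series follows from the lack of overlap. Aged STD mice had 15% to 43.6%. Dusp27, an atypical phosphatase gene, and the noncoding Gm48617 were the other 2, with differences of 6.25 and 5.04 points. Among lower gene bodies, Crtc1, a CREB coactivator of activity-dependent transcription, had 58.1%, 58.1%, 51.1%, 63.8% and 59.7% in Young STD mice. Aged ENR mice had 4.09% to 44.6% with a median of 33.9%, and Aged STD mice 0.402% to 39.5%. Young mice were tightly grouped and aged mice of both housings lay below all of them, by -29.4 ± 6.98 points for Aged ENR (SE; limma adjusted p = 0.227). The Crtc1 difference was -19.4 points in series 27 and -43.1 points in series 37. Atg5, which conjugates Atg12 in autophagosome formation, had 46.0%, 54.5%, 59.3%, 52.4% and 63.1% against 6.59% to 40.3%, and all 5 of its cytosines were lower. Dapp1 had 72.7% to 87.5% against 35.9% to 62.4% over 14 cytosines, of which 12 were lower. Cd52 repeated its window, since all 6 of its cytosines lay there. Wdfy1, an endosomal adaptor, had 41.6% to 56.1% against 0% to 35.7%, and the noncoding Platr32 had 61.7% to 86.9% against 0% to 61.6%. Differences of these 6 lower gene bodies ran from -35.6 to -26.7 points, with limma adjusted p from 0.190 to 0.391.

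Promoters, defined as the CpGs within 1000 bases of any transcription start of a gene, were centred near 0. The median difference of 17057 promoters was -0.047 points, 0 (0%) passed at a limma adjusted p under 0.05 (smallest 0.648), and 538 (3.15%) were lower and 227 (1.33%) higher at an unadjusted p under 0.05. Without Young STD mouse 3 a single promoter, that of Gm49445, was called (-37.4 points, limma adjusted p = 0.0107). With the composition index in the model the split turned, at 359 lower and 542 higher, and with library series and index together it was 529 lower and 558 higher. Non-overlap in all 12 mice was found in 13 lower promoters (0.0942% of 13803) and 15 higher promoters (0.109%). Both shares were below 1 in 792, the share of labellings that separates 5 and 7 mice fully in a given direction. Slc28a3, a nucleoside transporter gene, had the largest difference of the lower promoters without overlap, at 15.7%, 13.4%, 21.1%, 25.1% and 29.3% in Young STD mice and 0.175% to 10.3%, with a median of 5.47%, in Aged ENR mice. The difference was -15 ± 3.02 points (SE; limma adjusted p = 0.648), in the same direction in 13 of 15 cytosines. The lincRNA gene Gm30709 had 7.65%, 6.80%, 8.33%, 13.5% and 12.9% against 0% to 2.75%, with all 7 cytosines lower and the smallest limma adjusted p of all promoters (0.648). Ctsf, a lysosomal cathepsin, had 38.6% to 46.6% against 23.3% to 35.8% and Aged STD mice at 12.3% to 32.9%. Pde1c, Polr2k and Apba3 differed by -7.76, -6.91 and -5.88 points. Pde1c and Apba3 had differences of 0.431 and 0.472 points over the CpGs measured in all 12 mice, so their direction depended on which CpGs entered.

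The named higher promoters without overlap were near 0 in young mice, except that of 1700030C10Rik. Npas1, a transcription factor of forebrain interneurons, had 3.89%, 2.81%, 3.55%, 0% and 0% in Young STD mice and 4.95% to 15.7%, with a median of 7.63%, in Aged ENR mice. Aged STD mice had 0% to 5.96% with a median of 2.84%, close to the young mice. The Npas1 difference was 6.19 ± 1.89 points (SE; limma adjusted p = 0.914), with 15 of 22 cytosines higher. Ddn, which encodes the postsynaptic protein dendrin, had 1.23%, 1.90%, 0.915%, 1.81% and 0% against 2.63% to 6.67%, and Aged STD mice had a median of 1.57%. Slc39a3, a zinc transporter, had 0% to 1.44% against 2.77% to 6.74%. Klf14, an imprinted single-exon transcription factor gene, had 1.49% to 2.40% against 2.93% to 6.85%, and Dis3l2, an RNA exonuclease, had 0% to 0.204% against 1.05% to 4.94%. The noncoding 1700030C10Rik stood apart in size, at 19.3% to 36.8% against 37.2% to 58.6%.

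Gene lists were read against all genes, which had a median of -2.77 points in gene bodies and -0.047 in promoters, with 69.4% of gene bodies and 51.6% of promoters lower. No member of any of the 18 lists passed at a limma adjusted p under 0.05, against 0% of all genes. Oligodendrocyte markers had a median of -6.59 points over 8 gene bodies, of which 6 were lower and 0 passed an unadjusted p under 0.05 in either direction, and their mean level ranged from 37.6% to 49.6% in Young STD mice and from 25.6% to 40.3% in Aged ENR mice. Mbp, the myelin basic protein gene, had 32.8% to 51.9% against 15.3% to 37.1% (its difference of -9.80 points was 0.348 over CpGs measured in all 12 mice), and Mag, a myelin adhesion glycoprotein, had 70.8% to 85.7% against 73.5% to 96.0%. For oligodendrocyte progenitor markers 7 of 8 bodies were lower (median -3.58), with Enpp6 at 33.2% to 48.2% against 26.2% to 37.5% and Vcan at 75.0% to 100% against 67.9% to 94.9%. Astrocyte markers had 6 of 7 lower (median -2.01). Slc1a2, the main glutamate transporter of astrocytes, had 26.2%, 46.9%, 28.6%, 47.2% and 50.9% in Young STD mice and 19.1% to 32% in Aged ENR mice (-15.7 ± 4.87 points, SE; limma adjusted p = 0.391). The promoter of the connexin gene Gja1 was at 0% to 0.789% and 0% to 2.43%, a difference of 0.840 points that was -0.583 over CpGs measured in all 12 mice. Microglia markers had 7 of 8 bodies lower (median -3.47), with Tmem119 at -5.52 and the fractalkine receptor Cx3cr1 at -4.35 points. Endothelial and mural markers had 3 of 5 lower (median -7.27), with the receptor Kdr at -12.1 and the adhesion molecule Pecam1 at -10.9 points. In series 27 and 37 Kdr differed by -19.6 and -1.65 points, and Pecam1 by -4.30 and -20.4 points. Over CpGs measured in all 12 mice the sign turned for Cx3cr1 (0.726 points) and Kdr (4.30 points), and without a single Young STD mouse the difference was -2.68 points for Cx3cr1 (mouse 4) and -7.24 for Kdr (mouse 1).

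Mean levels of these glial and vascular body lists, over members measured in all 12 mice, overlapped between the groups. Oligodendrocyte progenitor markers had 52.9% to 60.2% in Young STD and 46.9% to 61.3% in Aged ENR mice, and astrocyte markers had 30.4% to 41.6% in Young STD and 15.6% to 40% in Aged ENR mice. Microglia markers had 37.1% to 47.1% and 36.9% to 48.9%, and endothelial and mural markers 66.8% to 74.0% and 56.3% to 69.9%. The part of a different cell make-up in the other results was not tested. Granule neuron markers had a median of -3.38 points over 12 gene bodies, with Pitpnm2, a phosphatidylinositol transfer protein, at 32.6% to 44.5% against 17.9% to 34.9% and the synaptic organiser C1ql2 at 0.51% to 6.88% against 2.87% to 13.8%. Interneuron markers had a median of 0.145 points over 12 bodies and 1.31 over 10 promoters, of which 2 were lower. The promoter of Dlx1, a homeobox gene of interneuron development, had a mean of 2.05% in Young STD and 4.75% in Aged ENR mice, and that of the neurexin ligand Nxph1 had 0.744% and 1.71%. In series 27 and 37 the Dlx1 promoter differed by 0.617 and 5.56 points, and that of Nxph1 by 1.16 and 0.713 points.

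Of 61 genes of adult hippocampal neurogenesis, 42 gene bodies were tested, 32 were lower, and 6 were lower at an unadjusted limma p under 0.05 against 7.47% of all gene bodies. Their median was -2.85 points and that of 54 promoters 0.183. Notch1, the receptor that keeps neural stem cells undifferentiated, had 24.3%, 24.8%, 39.8%, 26.0% and 53.9% in Young STD mice and 2.78% to 21.9%, with a median of 12.4%, in Aged ENR mice. These groups did not overlap over its 13 cytosines (-21.4 ± 5.07 points, SE; limma adjusted p = 0.227), and Aged STD mice ranged from 4.63% to 33.9%. Disc1, a scaffold of neuronal positioning, had 32.4%, 33.5%, 35.0%, 35.7% and 35.8% in Young STD mice and 14.6% to 36.9% in Aged ENR mice, where a single mouse lay above the young mice. Activity-regulated genes had 19 of 28 bodies lower (median -3.74), 5 of them at an unadjusted p under 0.05. Rheb, the GTPase upstream of mTOR complex 1, had 8.18% to 26.2% against 0% to 14.3%, and Inhba, the activin A subunit, had 14.8% to 34.2% against 6.74% to 17.4%.

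Synaptic genes were lower in 37 of 43 gene bodies of scaffold and adhesion molecules (median -4.88 points), with 6 at an unadjusted p under 0.05, where 69.4% of all gene bodies were lower and 7.47% were lower at that p. The scaffold Dlg1 had 64.2%, 45.4%, 47.2%, 43.8% and 61.9% in Young STD mice and 14.7% to 51.1% in Aged ENR mice, with all 7 cytosines lower (-21.3 points, limma adjusted p = 0.458). Cadm1, a synaptic adhesion molecule, had 31.1% to 50.5% against 17.0% to 39.2%. For glutamate receptors 19 of 23 bodies were lower (median -2.74). Grin2a, an NMDA receptor subunit, had 49.5%, 59.2%, 46.3%, 71.5% and 76.4% in Young STD mice and 39.3% to 53.5% in Aged ENR mice. Axon guidance genes had 40 of 52 bodies lower (median -4.88), with the netrin receptor Unc5a at -10.4 points, while the promoter of the ephrin receptor Ephb4 had a mean of 0.833% and 4.53%. Voltage-gated channels had 48 of 59 bodies lower (median -4.68). Cacna1d, a pore subunit of L-type calcium channels, had 59.9%, 58.4%, 62.3%, 63.4% and 67.9% in Young STD mice and 46.2% to 55.8% in Aged ENR mice with no overlap. Its difference was -11 ± 4.06 points (SE; limma adjusted p = 0.482), whereas Kcnn1, a calcium-activated potassium channel, had a level 13.6 points higher over 3 cytosines, or 8.16 without Young STD mouse 1.

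Matrix genes had 40 of 49 bodies lower (median -3.92), with 5 (10.2%) lower at an unadjusted p under 0.05, against 69.4% and 7.47% of all gene bodies. The laminin chain Lama1 had 78.6% to 88.6% against 70.4% to 81.4%, and the promoter of the perineuronal net component Acan had a mean of 3.15% and 0.412%. Developmental transcription factors, mostly silent in the adult brain, had a median of -0.077 points over 85 gene bodies and 0.460 over 113 promoters, of which 39 were lower. Prdm14, a germ cell factor, had a gene body at 1.90% to 21.5% against 7.99% to 29.3%, and its difference was 1.58 points in series 27 and 23.7 in series 37. The promoter of Hoxb3 had a mean of 4.0% and 1.01%. Clustered protocadherins, which give neurons an identity code, had 31 of 42 gene bodies lower (median -1.42), and 11 were lower at an unadjusted p under 0.05. These were not separate observations, because the genes of the alpha cluster overlap. Of the 11, 8 (Pcdha5 to Pcdha9, Pcdha12 and 2 entries of Pcdha11) held the same CpGs. Pcdhac2 had 21.4%, 23.0%, 25%, 18.8% and 27.3% in Young STD mice and 2.79% to 18.7%, with a median of 11%, in Aged ENR mice with no overlap (-11.3 ± 2.82 points, SE; limma adjusted p = 0.250). Pcdha4 differed by -12.4 points.

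Imprinted genes had 12 of 17 bodies lower (median -4.75), where 69.4% of all gene bodies were lower, and 18 of 28 promoters lower (median -2.65), where 51.6% of all promoters were lower with a median of -0.047. Nespas, a paternally expressed antisense transcript of the Gnas cluster, had 33.0%, 28.1%, 27.1%, 52.6% and 23.5% in Young STD mice and 11.7% to 21.2% in Aged ENR mice. The groups did not overlap (-15.6 ± 4.47 points, SE; limma adjusted p = 0.358), and Aged STD mice spread from 0% to 42.0%. Rian, a maternally expressed noncoding RNA, had 33.3% to 70.0% against 23.9% to 43.1%. Genes that write, erase or read DNA methylation had 11 of 13 bodies lower (median -6.21). Mbd2, a reader of methylated CpGs, had 36.0% to 64.0% against 12.4% to 43.9% in its gene body, where the difference was -19.1 points (limma adjusted p = 0.421), and a mean of 1.43% against 3.2% in its promoter.

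**Figure D5:**
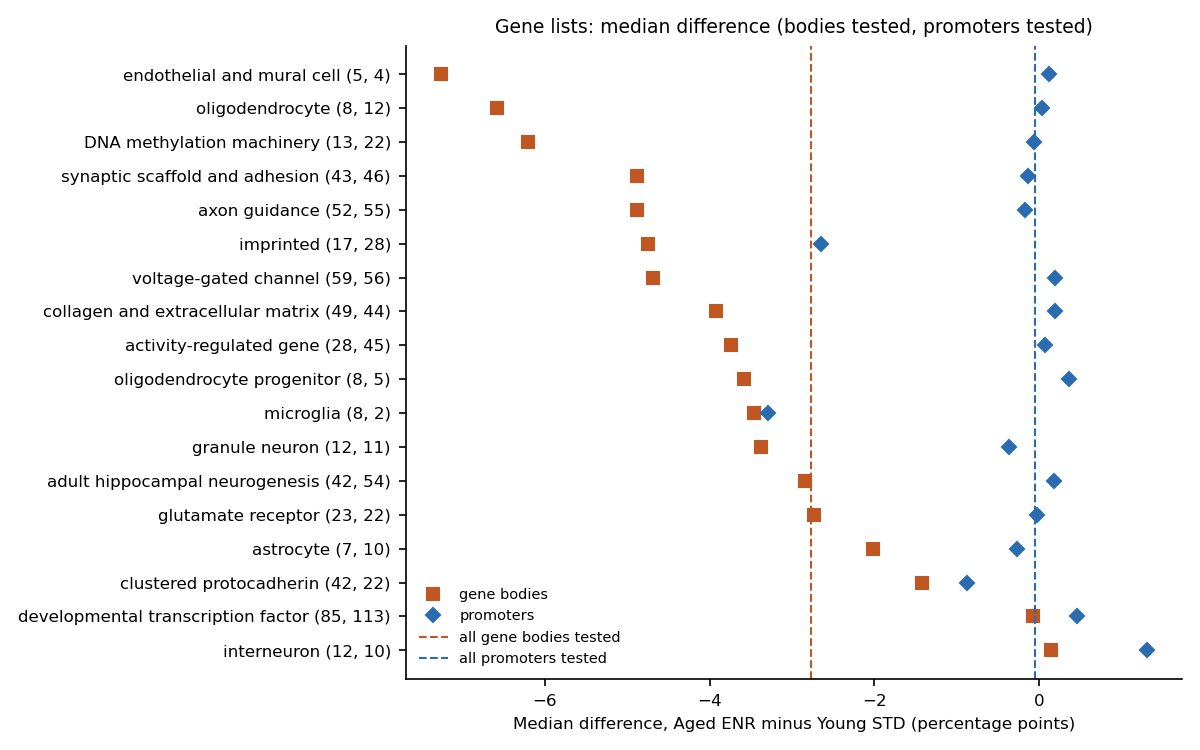
Median difference in methylation between Aged ENR and Young STD mice (percentage points, x axis) over the gene bodies (squares) and promoters (diamonds) of 18 gene lists, with the numbers of bodies and promoters tested in parentheses; dashed lines give the medians over all gene bodies (-2.77) and all promoters (-0.047). Most squares lie between -7.27 and -1.42 points, and developmental transcription factors (-0.077) and interneuron markers (0.145) lie near 0.

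The gene bodies of Tiam1, a Rac exchange factor of dendritic spines, Tshz2, a zinc finger homeobox factor, and Cux2, a homeobox factor of upper-layer neurons, overlapped between the groups. Tiam1 had 36.7%, 42.1%, 41.7%, 53.6% and 44.0% in Young STD mice and 29.8% to 48.0%, with a median of 34.3%, in Aged ENR mice over 181 cytosines. Tshz2 had 64.3%, 62.1%, 60.7%, 66.9% and 65.1% against 52.2% to 66.9%, with a median of 57.3%, over 224 cytosines. Their differences were -6.80 ± 4.81 and -5.57 ± 4.12 points (SE; limma adjusted p = 0.691 and 0.703), and that of Tiam1 was -4.32 points without Young STD mouse 4. Cux2 differed by -1.16 ± 4.28 points (SE; limma adjusted p = 0.940) and changed sign with the composition index in the model (0.350 points). Aged STD mice ranged from 14.9% to 52.8% at Tiam1, from 37.3% to 69.4% at Tshz2 and from 32% to 54.1% at Cux2, wider than either other group.

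As a single measure of the whole profile, the mean absolute distance from the mean of the Young STD mice, over 19641 windows measured in all 19 mice, was 3.96 ± 0.750 points (SD, n = 5) for Young STD mice, each against the other young mice. It was 4.37 ± 0.556 points for Aged ENR mice (SD, n = 7) and 4.67 ± 0.784 for Aged STD mice (SD, n = 7), and the ranges overlapped (3.19 to 4.80, 3.85 to 5.25 and 3.49 to 5.73). The spread within a group was also wider in Aged ENR mice, with a median SD per window of 2.77 points in Young STD and 3.15 in Aged ENR mice. The larger SD was in Aged ENR mice in 59.4% of windows, and this difference in spread was not tested. Aged ENR mice also had values at fewer CpGs (mean 580603 against 621803). Their mean share of intermediate CpGs at an extreme value, the trace of depth given above, was 40.7% against 29.6%. The part of read depth in the spread and in the distances was not tested. Over the CpGs used for the region classes, Aged STD mice, some of which had no value at some of them, had intron levels of 31.4% to 51.4% and levels of 7.70% to 35.4% at promoters of imprinted genes. Both ranges were wider than those of Young STD and Aged ENR mice.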

How the data were processed

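Per the labels and the study's methods, dentate gyrus DNA of individual mice was sequenced by RRBS on libraries of a commercial kit, reads were trimmed and aligned to mm10, and methylation was called per cytosine. The processing notes name Trim Galore 0.4.0, cutadapt 1.8.1, Bismark 0.16.1 and methylKit 1.5.2. The authors deposited a table of percent methylation per cytosine, with no read counts, after a coverage filter, and each strand of a CpG has its own value. Of 762182 cytosines, 762137 in CpGs of chromosomes 1 to 19 and X were kept. A column that matched no sample was not found.

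Values were averaged per mouse over 1 kb windows, promoters (within 1000 bases of a start, GENCODE M21) and gene bodies (all other CpGs of a gene), with at least 3 CpGs per mouse and values in at least 4 Young STD and 5 Aged ENR mice. A CpG-dense window or promoter had a GC content of at least 50% and an observed to expected CpG ratio of at least 0.6. Groups were compared on the percent scale with limma 3.58.1 in R 4.3.3 (variance trend, two-sided, Benjamini-Hochberg over all features of a kind, threshold 0.05). The 15 region classes were compared by two-sided exact permutation of the mice (scipy 1.17.1). The scripts were tested on simulated data. Each replicate was a separate mouse. Same-numbered mice of the groups did not deviate together, so numbers were not used as pairs. Alternatives were other CpG minimums, CpGs common to all mice, other variance models, library series or composition index as covariates, and leaving out each mouse.

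Named were, in each direction, up to 8 windows, 6 promoters and 6 gene bodies with the largest differences among called features, filled from features measured in all 12 mice whose groups did not overlap. For each of 18 gene lists the 2 members with the largest limma statistic were named, except 1 member that is not reported here, and the gene bodies of Tiam1, Tshz2 and Cux2 were added. For features named without overlap, the same direction in both library series follows from that choice. A shared direction among their cytosines is not independent of it. Where other features are named, they were chosen after their values were seen. The comparison, its lists and these rules were chosen with earlier results of these data known.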

Additional observations from a re-analysis of the deposited data

Results flagged for a closer look

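In 9 of 182 groups of mice (4.95%) a single mouse stood far from the others of its group, where chance gives about 1 in 20. Aged ENR mouse 6 was the highest of its group in CpGs under 10% in Aged STD mice, at 3.68% with the next mouse at 2.98%, and in the window near Ywhaz, at 35.6% with the next at 12.4%. This mouse had the highest composition index of the Aged ENR mice. Aged ENR mouse 7 was the lowest in the gene body of Cx3cr1, at 15.4% with the next at 23.4%, and the highest in that of Grin2a, at 53.5% with the next at 44.3%. Aged ENR mouse 5 was the highest at the promoter of Dis3l2, at 4.94% with the next at 2.67%, and Aged ENR mouse 4 the lowest in the gene body of Prdm14, at 7.99% with the next at 20.8%. Among Young STD mice, mouse 5 was the lowest in the Eif2b2 window (77% with the next at 86.6%) and at the Mbd2 promoter (0% with the next at 1.68%), and mouse 3 was the lowest in the gene body of Tmem119, at 72.4% with the next at 83.4%.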

How the results depend on the processing

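Of the 75 named windows, promoters and gene bodies, many were named because their groups did not overlap. For those, leaving out a mouse or splitting by library series could not turn the sign. Of 1970 alternative values of all 75, 1961 kept their direction. The 9 that turned were, over CpGs measured in all 12 mice, Pde1c (0.431 points), Apba3 (0.472), Mbp (0.348), Gja1 (-0.583), Cx3cr1 (0.726) and Kdr (4.30), and for Cux2 with the composition index (0.350), with series and index (0.304) and without Aged ENR mouse 5 (0.0846, in a range from -2.40 when each mouse was left out). Leaving out a single Young STD mouse moved a named difference by over 1.5 times in the Sdk1 window (5.57, mouse 3), Vcan (-5.28), Cx3cr1 (-2.68), Acan (-1.44) and Tiam1 (-4.32, all mouse 4), Kdr (-7.24) and Kcnn1 (8.16, both mouse 1), Inhba (-5.87, mouse 5) and Cux2. The numbers of calls at an adjusted limma p under 0.05 stayed small. Windows went from 0 to 1 with at least 5 CpGs (near Mfap3l, where Aged ENR mouse 6 then had no value). They went to 1 without a variance trend, and ranged from 0 to 5 when each mouse was left out. The 5 came without Young STD mouse 4 (in Fos, Kcnh1, Ntsr1, Dusp7 and between genes). Promoters ranged from 0 to 1 when each mouse was left out, and 1 was called in series 27. Gene bodies had 6 calls over CpGs measured in all 12 mice, with Igfals among them (-56.4 points, on cytosines of its window). Of these 6, 3 had identical values. Gene bodies had 1 call with the library series, 3 with series and index, and 1 in series 27. At an unadjusted p under 0.05, numbers that moved by over 1.5 times were 1366 of 26867, 808 of 15246, 1630 of 28610 and 1913 of 34064 windows (at least 5 CpGs, common CpGs, replicate block, series 37), shares of 5.08%, 5.30%, 5.70% and 5.62% against 5.91% of 49283, 377 of 8291 promoters (common CpGs), and 376 of 3909, 547 of 8383 and 1301 of 10072 gene bodies (common CpGs, series 37, without Aged ENR mouse 6).

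Region classes other than those set by Aged STD level passed where Aged ENR mouse 6 was left out, with exceptions for CpG-dense, X-linked and repeat-masked CpGs. These passes followed from leaving out the highest Aged ENR mouse of each class. When each mouse was left out, differences reached from their value without mouse 6, which was -1.64 for all CpGs, -1.13 for sparse promoters, -1.87 for exons, -3.56 for introns, -1.97 and -2.14 for intergenic CpGs near and far, -0.660 and -6.45 for CpGs under 10% and at 10% to 50%, -10.4 for imprinted promoters and -1.72 for CpGs not repeat-masked, up to -0.928, -0.619, -0.896, -2.23, -1.01, -1.10, -0.404, -4.26, -5.52 and -1.0 in this order. Without Aged ENR mice 4 and 6, an alternative chosen after seeing the data, all CpGs, sparse promoters, exons, introns, near intergenic CpGs, imprinted promoters and CpGs not repeat-masked passed, with -1.33, -0.959, -1.50, -2.94, -1.59, -9.54 and -1.41 points. CpGs under 10% and at 10% to 50%, set by Aged STD level and so given without a p, differed by -0.604 and -5.53 points. CpG-dense promoters turned to 0.080 over all CpGs measured, 0.083 with the index, 0.043 with series and index, 0.058 on autosomes, 0.00018 in series 27 and 0.044 without Aged ENR mice 3 and 4, and ranged from -0.083 to 0.030 when each mouse was left out. Over all CpGs measured in a mouse, introns differed by -5.48 and imprinted promoters by -2.66 points. CpGs at 80% and over turned to -0.045 in series 37 and to -0.084 with the replicate block. The cause was not tested. With the replicate block over mice 1 to 5, introns differed by -3.73 points (adjusted exact p = 0.104, where the smallest exact p that 5 pairs allow is 0.0625, so no class could pass), and 0 windows, promoters or gene bodies were called (limma). Same-numbered mice had correlations of -0.077 to 0.031, so the numbers do not pair them. The unknown read depth limits all values.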

Other observations

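Other list members whose gene bodies or promoters had an unadjusted limma p under 0.05 were chosen here after their values were seen, and none passed correction. Among neurogenesis genes, the growth factor receptor Igf1r had gene body means of 57.5% in Young STD and 43.9% in Aged ENR mice, the neurotrophin Bdnf 16.4% and 7.60%, the forkhead factor Foxo3 10.3% and 4.0%, and Nfix 8.52% and 4.39%. Synaptic genes included Homer1, a postsynaptic scaffold, at 55.4% and 36.3%, and the X-linked adhesion molecule Nlgn3 at 71.5% and 45%. The promoter of Dlg3, another X-linked scaffold, had means of 36.7% and 15.1%. The axon guidance genes Efna2 and Sema3e had gene body means of 45% and 25.3% and of 63.3% and 48.1%. The matrix glycoprotein Tnr had 36.0% and 26.3%, and the activity-regulated pentraxin Nptx1 had 23.4% and 9.89%. The promoter of the imprinted retrogene Mcts2 had 42.4% and 14.3%, the largest difference named here in points.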
